A study of Mus musculus with 12 samples.

Results

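Interferon response genes were examined in the adrenal glands of Ftz-F1 transgenic mice. Ftz-F1 is the older name of the locus of Nr5a1, the nuclear receptor SF-1 that drives adrenal and gonadal steroid production. The list was chosen with earlier results of these data known. It held 46 mouse genes that interferons are known to induce, matched by gene symbol to the array's probe annotation. Of these, 42 genes had a probe and were tested, on 43 probes (Parp14 had 2), among 21513 features tested in all, of which 17882 were named genes. Ddx58, Ifit3, Ifi44 and Gbp4 had no probe assigned to them alone.

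The transgenic mice came from 1 line, line #56, and the labels mark the transgene as a yeast artificial chromosome (YAC), so an effect of that line and an effect of the transgene cannot be told apart. On 2-colour arrays, each transgenic mouse was set against 1 wild-type littermate matched for sex and age. The 10-day group held 3 pairs with 1 transgene copy (pairs 11 and 13, males, and pair 15, females), and the 4-month group held 3 pairs with 2 copies (pairs 1 and 3, males, and pair 5, females). Age and copy number therefore cannot be told apart. Each pair was hybridised on 2 arrays with the dyes exchanged, giving 12 arrays, and their mean was counted as 1 replicate.

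All values below are log2 ratios between the transgenic and the wild-type member of a pair, so 1 unit is a 2-fold difference. The labels used here do not say which of them is the numerator, and the sign is kept as deposited. If the ratio runs the other way, every sign and every count of negative values below turns over. Nr5a1 itself had ratios of -0.57, -0.65 and -0.79 in the 10-day pairs 11, 13 and 15, and of -0.46, 0.11 and -0.22 in the 4-month pairs 1, 3 and 5. The sign of Nr5a1 was thus negative in every 10-day pair and mixed at 4 months.

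Interferons are secreted proteins of antiviral defence. Type I interferons bind a receptor made of Ifnar1 and Ifnar2 and, through JAK kinases, activate a complex with Stat2 and Irf9 that binds the interferon-stimulated response element (ISRE). Interferon gamma binds Ifngr1 and Ifngr2, and its signal reaches genes at the gamma-activated site (GAS). The induced genes encode transcription factors that extend the response, sensors of viral RNA, antiviral proteins, GTPases that attack intracellular parasites, and the machinery that loads peptides onto MHC class I. They are expressed in most cell types, and macrophages and lymphocytes carry several of them at rest.

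The ISRE core was searched for as GAAANNGAAA on either strand, in RefSeq promoters of GRCm38.p6 that run from 250 bases before to 50 after a gene's start. Promoters were matched for 33 of the 42 tested genes, and 17 of them (51.5%) held the core, against 3.70% of 14174 tested genes with a promoter and 3.99% of 27025 genes in all. The shorter GAS core, TTCNNNGAA, which reads the same on both strands, was in 9 of the 33 (27.3%), against 8.96% of tested genes and 9.55% of all. Of the genes whose values are given below in all 6 pairs, 6 carry an ISRE core before the start. Their windows of 60 bases are shown 5′ to 3′ on the gene's strand, with every copy of the core in capitals, as its reverse complement where it lies on the other strand.
B2m, chr2:122147523-122147582, + strand: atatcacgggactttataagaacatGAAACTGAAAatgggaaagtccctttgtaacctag
Gbp2, chr3:142620579-142620638, + strand: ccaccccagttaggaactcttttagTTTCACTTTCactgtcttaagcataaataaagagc
Gbp3, chr3:142559980-142560039, + strand: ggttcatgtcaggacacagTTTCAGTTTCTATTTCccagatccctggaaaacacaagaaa
Rsad2, chr12:26456538-26456597, - strand: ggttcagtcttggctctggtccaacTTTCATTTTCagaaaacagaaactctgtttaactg
Slfn8, chr11:83020824-83020883, - strand: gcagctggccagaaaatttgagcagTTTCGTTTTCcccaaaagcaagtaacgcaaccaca
Cxcl10, chr5:92349068-92349127, - strand: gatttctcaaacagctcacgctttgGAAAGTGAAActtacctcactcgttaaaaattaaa

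Gbp3 carries 2 overlapping cores within 16 bases, and the other 5 windows carry 1 each. Irf7, Irf9, Psmb9 and Tap1 were matched to a promoter without either core in this window, and Psmb8 to 1 with a GAS core only. Genes with and without the core had overlapping ratios. At 4 months the 17 genes with an ISRE core had a median ratio of -0.46 with 13 negative, and the 16 without it a median of -0.34 with 13 negative.

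At 4 months most interferon response genes had negative ratios, while at 10 days they were spread around 0. The median over the 42 genes was -0.34 at 4 months and -0.01 at 10 days, beside -0.01 over all features in both groups. At 4 months 33 of 42 genes (78.6%) had a negative mean, against 52.0% of all features, and at 10 days 22 of 42 (52.4%), against 51.4%. No single gene passed the test after correction for multiple testing. The ratios of the individual genes by pair show that the shift at 4 months was led by pair 3 (male).

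**Figure D1:**
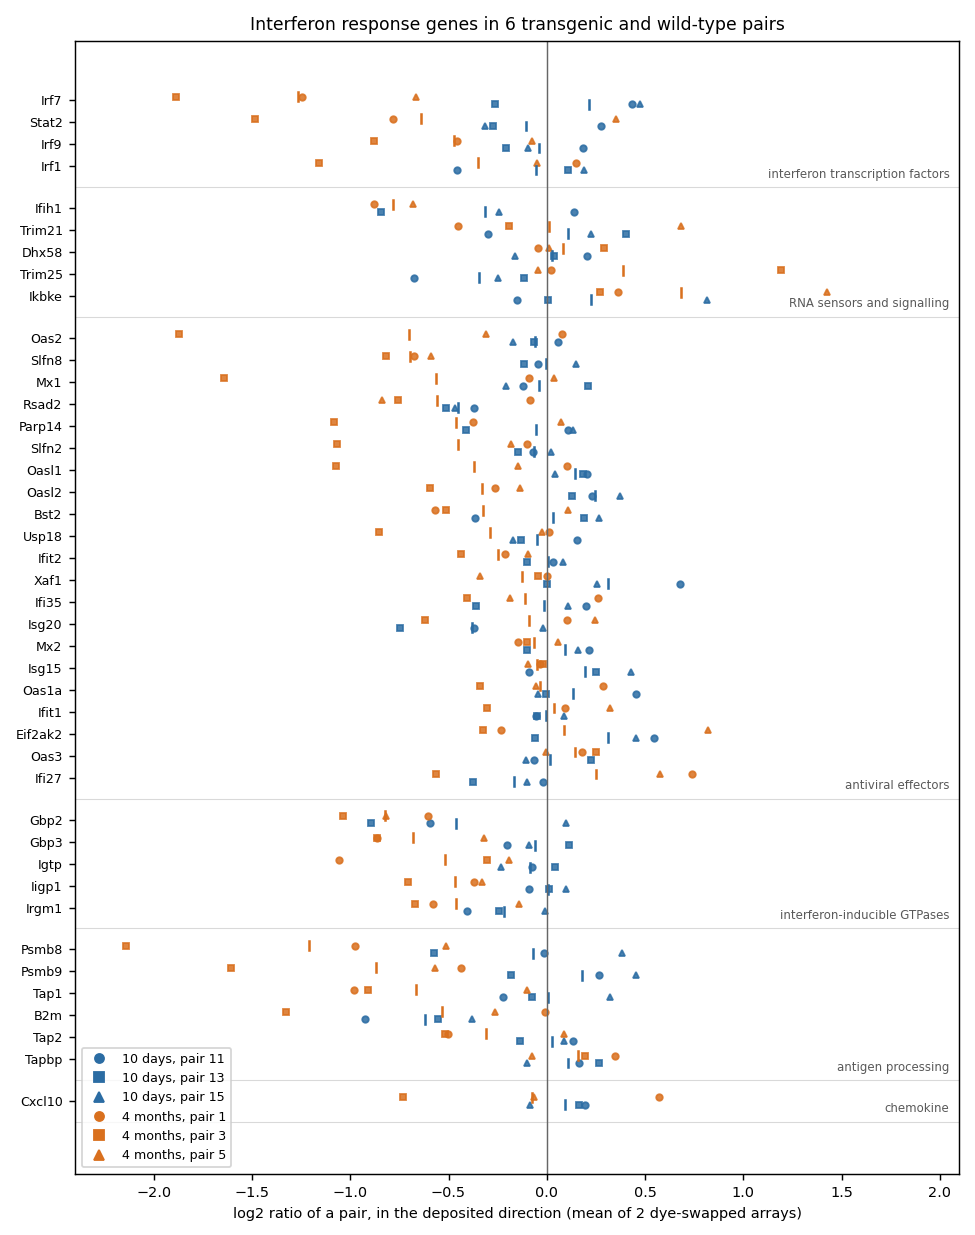
Log2 ratio of each of the 42 interferon response genes (rows, by role) in the 10-day pairs (blue) and the 4-month pairs (orange), with the x axis in log2 units and vertical ticks at group means. At 4 months, 33 of 42 means lie below 0, and pair 3 (orange squares) is the lowest of the 4-month pairs for 28 of the 41 genes it measured.

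The median over the genes was -0.02, -0.09 and 0.06 in the 10-day pairs 11, 13 and 15. At 4 months it was -0.12 in pair 1, -0.67 in pair 3 and -0.09 in pair 5. Pair 3 was far below the other 5 pairs, and pairs 1 and 5 lay close to pair 13. The mean of the pair medians was -0.013 ± 0.076 (SD, n = 3) at 10 days and -0.293 ± 0.327 (SD, n = 3) at 4 months, a difference smaller than the spread at 4 months. Pair 3 was the lowest of the 4-month pairs for 28 of 41 genes, as it was for 32.7% of all features. Without pair 3 the 4-month median was -0.14 and 30 of 42 genes were negative. The genes also differed more between pairs than other features at 4 months, with a median SD over 3 pairs of 0.439 against 0.203, while at 10 days it was 0.211 against 0.186.

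Each gene was tested with limma on all 21513 features (two-sided, Benjamini-Hochberg adjusted p, threshold 0.05). None of the 42 genes was called at 10 days (0.0% of all features called), at 4 months (0.0%), over all 6 pairs (0.0558%, 12 features) or for the difference between groups (0.0%). Their smallest limma adjusted p was 0.208 at 4 months and 0.0991 over all 6 pairs. At an unadjusted limma p under 0.05, 1794 features at 10 days, 2646 at 4 months and 982 for the difference passed, and an ordinary linear model also called 0 features in each of these comparisons. Of the interferon response genes, 16 of 42 (38.1%) passed that unadjusted threshold with a negative ratio at 4 months, against 6.21% of features, and 1 gene, Ikbke, with a positive ratio, against 6.09%. At 10 days 3 genes did (Rsad2, Gbp2 and B2m, all negative), against 4.09% of features, and over all 6 pairs 12 (28.6%), against 7.45%. For 4 months minus 10 days 8 of 42 (19.0%) passed with a negative difference, against 2.39%. That count was 5 without pair 3 and 15 of 41 without pair 5, and 5 with the ordinary linear model. In those fits 798 of 20936, 1534 of 20951 and 1021 of 21513 features passed with a difference of either sign, beside 982 in the main fit. The 10-day count of 3 negative genes fell to 0 without pair 13 and with the ordinary linear model, which also gave 6 over all 6 pairs. Features passing with either sign were 1161 of 21082 and 1689 of 21513 in those 10-day fits. Over all 6 pairs the ordinary linear model passed 2823, beside 3221 in the main fit.

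A fit on the 12 single arrays, with the dye orientation as a term and the pair as a random block, called more. At 4 months its limma adjusted p passed for 7 of the 42 genes, beside 287 of the 21714 features this fit tested. The 7 were Irf7, Ifih1, Slfn8, Gbp2, Gbp3, Psmb8 and Psmb9, all negative. Over all 6 pairs it passed for 7 of the 42, beside 766 of 21714 features. The fit called none of the 42 at 10 days or for the difference. That fit estimates a correlation of 0.307 between the arrays of a pair, shared by all features, and draws its spread from arrays as well as from pairs.

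By sign alone, 17 of 41 genes measured in every 4-month pair (41.5%) were negative in all 3, against 17.8% of features, and at 10 days 6 of 42 (14.3%) were, against 16.9%. Without pair 3, 18 of 42 (42.9%) were negative in both remaining 4-month pairs, against 29.1%. Only Rsad2, Irgm1 and B2m of 41 genes (7.32%) were negative in all 6 pairs, against 4.75%. These signs are of pair means, and single arrays did not all share them. Rsad2 and B2m were negative on 6 arrays at 10 days and 5 at 4 months, and Irgm1 on 3 and 5. Every 4-month pair lay below every 10-day pair for Irf7, Oasl2, Slfn8, Gbp3, Iigp1 and Psmb9, which is 14.6% of 41 genes against 5.33% of features, and above them for Trim25 alone, against 5.06%.

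**Figure D2:**
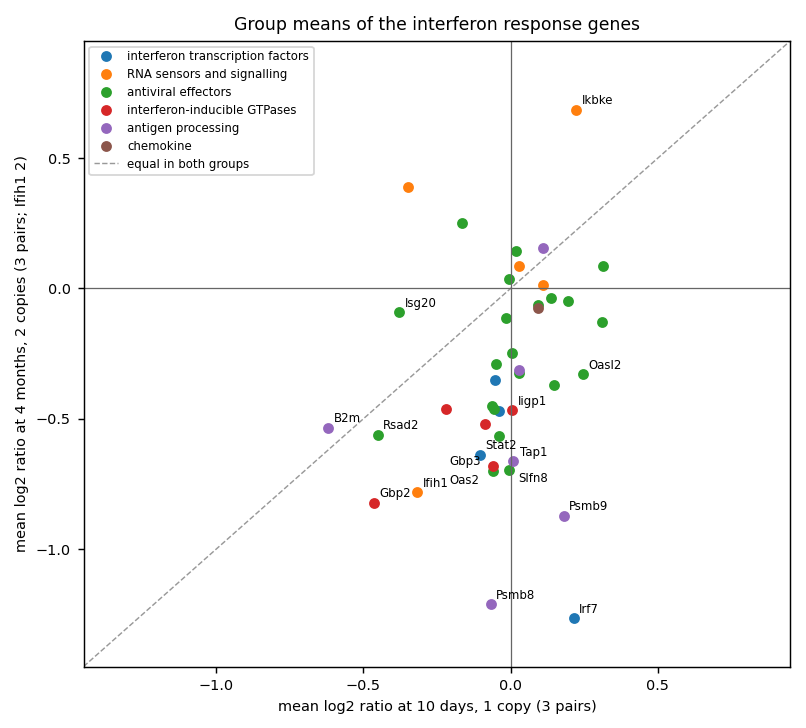
Mean log2 ratio of each interferon response gene at 10 days with 1 copy (x axis) and at 4 months with 2 copies (y axis), coloured by role, with the dashed line marking equal means. Irf7, Psmb8 and Psmb9 lie lowest at 4 months with 10-day means near or above 0, B2m and Rsad2 are negative in both groups, and Ikbke is the most positive at 4 months.

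Of the interferon transcription factors, all 4 had negative means at 4 months and 3 of 4 at 10 days, against 52.0% and 51.4% of all features. Their median was -0.55 at 4 months and -0.05 at 10 days. Irf7, the factor that amplifies type I interferon production, had the lowest 4-month mean of the 42 genes. Its ratios were 0.43, -0.27 and 0.48 in pairs 11, 13 and 15 and -1.24, -1.89 and -0.67 in pairs 1, 3 and 5. Every 4-month pair lay below every 10-day pair, and all 6 arrays of the 4-month pairs were negative. The means were 0.21 ± 0.42 at 10 days and -1.27 ± 0.61 at 4 months (SD, n = 3 each; limma SE 0.23, adjusted p = 0.208), and the difference of -1.48 had a limma unadjusted p of 0.00212 and an adjusted p of 0.933. Without pair 3 the 4-month mean of Irf7 was -0.95.

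Irf9, a DNA-binding subunit that joins Stat2, had ratios of 0.18, -0.21 and -0.10 at 10 days and of -0.46, -0.88 and -0.08 at 4 months. Its 4-month mean was -0.47 ± 0.40 (SD, n = 3; limma adjusted p = 0.323), and its groups overlapped, since pair 5 lay above pairs 13 and 15. Stat2 and Irf1 had mixed signs at 4 months. Stat2, Irf9's partner, was at -0.78, -1.49 and 0.35, and Irf1, a factor induced mainly by interferon gamma, at 0.15, -1.16 and -0.05. Without pair 3 the 4-month mean of Irf1 was 0.05, and the median of the 4 factors was -0.24.

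The RNA sensors and their signalling partners did not share the negative ratios. Of 5 measured genes only Ifih1 had a negative 4-month mean, with a class median of 0.08. Leaving out pair 3 gave -0.01 and 3 of 5 negative, the others being Dhx58 at -0.02 and Trim25 at -0.01. Ifih1, the sensor MDA5 of long viral RNA, was at 0.14, -0.85 and -0.25 at 10 days and at -0.88 and -0.68 in pairs 1 and 5. In pair 3 only the array with transgenic RNA in Cy3 gave a value, -1.40, so the pair had no mean and entered only the fit on single arrays. Its 4-month mean of -0.78 ± 0.14 (SD, n = 2; limma adjusted p = 0.289) rests on those 2 pairs, and pair 5 lay within the range of the 10-day pairs. Ikbke, the kinase IKK-epsilon that activates Irf3 and Irf7, was at -0.15, 0.01 and 0.81 at 10 days and at 0.36, 0.27 and 1.43 at 4 months. It was the only 1 of the 42 genes positive in all 3 of the 4-month pairs, with a mean of 0.69 ± 0.64 (SD, n = 3; limma adjusted p = 0.357), and its groups overlapped.

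Trim25, the ubiquitin ligase that acts on the sensor RIG-I, was at -0.67, -0.12 and -0.25 at 10 days and at 0.02, 1.19 and -0.04 at 4 months. The 4-month pairs lay above the 10-day pairs, and the 4-month mean of 0.39 ± 0.70 (SD, n = 3; limma adjusted p = 0.530) rested on pair 3, without which it was -0.01. Dhx58, the regulator LGP2 of the same sensors, stayed between -0.05 and 0.29 at 4 months. Trim21, an intracellular antibody receptor, ranged from -0.45 to 0.68.

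The antiviral effectors, the largest class with 21 genes, had a 4-month median of -0.25 with 17 negative means, and of -0.05 with 14 negative without pair 3. Most of this class was thus close to 0 in pairs 1 and 5, where its medians were -0.03 and -0.05, beside -0.56 in pair 3. Of the 21, 5 passed an unadjusted limma p of 0.05 at 4 months, all negative, against 6.21% of features: Ifit2, Oasl2, Rsad2, Slfn2 and Slfn8.

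Slfn8, a Schlafen family gene, had the smallest limma p of the effectors at 4 months. It was at -0.05, -0.12 and 0.15 at 10 days and at -0.68, -0.82 and -0.59 at 4 months. The groups did not overlap, all 6 arrays of the 4-month pairs were negative, and pair 3 did not stand apart. The 4-month mean of -0.70 ± 0.12 (SD, n = 3; limma SE 0.10, adjusted p = 0.208) was -0.63 without pair 3, and the difference from 10 days was -0.69 (limma unadjusted p = 0.00155, adjusted p = 0.933). Rsad2, the antiviral enzyme viperin, was negative in every pair of both groups, at -0.37, -0.51 and -0.47 at 10 days and at -0.09, -0.76 and -0.84 at 4 months. Its arrays in pair 1 disagreed in sign, at 0.29 with transgenic RNA in Cy3 and -0.46 in Cy5. Its means of -0.45 ± 0.07 and -0.56 ± 0.41 (SD, n = 3 each) differed by less than the 4-month spread, with limma adjusted p of 0.485 and 0.273. Over all 6 pairs the limma adjusted p of Rsad2 was 0.104.

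Other well-known effectors were far lower in pair 3 than in pairs 1 and 5. Oas2, a synthetase that activates RNase L, was at 0.08, -1.87 and -0.31 in pairs 1, 3 and 5. Mx1, the GTPase that blocks influenza virus, was at -0.09, -1.64 and 0.04. Oasl1, Slfn2, Parp14 and Usp18, the last a protease that removes Isg15 from proteins, had ratios between -1.08 and -0.85 in pair 3 and between -0.37 and 0.10 in pairs 1 and 5.

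Several genes that are standard readouts of the interferon response had 4-month means near 0. Isg15, the ubiquitin-like modifier, was at -0.03, -0.02 and -0.10, and its promoter held 3 copies of the ISRE core. The 4-month means of Ifit1, Oas1a, Oas3 and Mx2 were 0.04, -0.04, 0.14 and -0.06. Ifit1 and Oas1a had mixed signs, at 0.09, -0.30 and 0.32 and at 0.29, -0.34 and -0.05, and their means were 0.21 and 0.12 without pair 3. Ifit2, a relative of Ifit1, and Bst2, the tether that holds budding viruses, were lower, with 4-month means of -0.25 and -0.33. In pairs 1, 3 and 5 Ifit2 was at -0.21, -0.44 and -0.09 and Bst2 at -0.57, -0.51 and 0.11. Eif2ak2, the kinase PKR, and Ifi27 were positive in 1 or more 4-month pairs, at -0.24, -0.32 and 0.82 and at 0.74, -0.56 and 0.58. Their 4-month means were 0.09 and 0.25. Isg20, Ifi35 and Xaf1 had 4-month means of -0.09, -0.11 and -0.13, and of 0.17, 0.04 and -0.17 without pair 3.

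The interferon-inducible GTPases shared a negative sign at 4 months. All 5 measured genes were negative in all 3 of the 4-month pairs and passed an unadjusted limma p of 0.05 (6.21% of all features did so with a negative ratio), and their 4-month means ran from -0.82 to -0.46. The sign was not confined to 4 months: at 10 days 4 of 5 means were negative, with a median of -0.09, and all 5 genes were negative in pair 11. The class median was -0.61, -0.70 and -0.32 in pairs 1, 3 and 5 and -0.20, 0.01 and -0.01 in pairs 11, 13 and 15. It was -0.52 over the 4-month means and -0.59 without pair 3, so the class was as far from 0 without that pair.

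Gbp2, a guanylate-binding protein that targets vacuoles of intracellular pathogens, was at -0.59, -0.90 and 0.10 at 10 days and at -0.61, -1.04 and -0.82 at 4 months. Its 4-month mean was -0.82 ± 0.22 (SD, n = 3; limma adjusted p = 0.233), and pair 13 lay within the 4-month range and pair 11 just above it. Over all 6 pairs Gbp2 had the smallest limma adjusted p of the 42 genes, 0.0991. Gbp3, of the same family, was at -0.20, 0.11 and -0.09 at 10 days and at -0.86, -0.86 and -0.32 at 4 months. The groups did not overlap, and the 4-month mean was -0.68 ± 0.31 (SD, n = 3; limma adjusted p = 0.210). Iigp1, Igtp and Irgm1, immunity-related GTPases, had 4-month means of -0.47, -0.52 and -0.46. Igtp was at -1.06, -0.31 and -0.19 in pairs 1, 3 and 5, so pair 1 had the lowest mean of 2 arrays. In pair 3 the arrays of Igtp were opposed, at -1.28 with transgenic RNA in Cy3 and 0.67 in Cy5. Igtp was negative on 4 of the 6 arrays at 4 months, and Irgm1 on 5.

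Of the antigen-processing genes, 5 of 6 had negative 4-month means and the median was -0.60, or -0.36 without pair 3. Psmb8, Psmb9, Tap1 and Tap2 are 4 consecutive protein-coding genes on chromosome 17 in RefSeq's GRCm38.p6 annotation, within the MHC. Psmb8, an immunoproteasome subunit, was at -0.01, -0.57 and 0.38 at 10 days and at -0.98, -2.14 and -0.51 at 4 months. Its 4-month mean was -1.21 ± 0.84 (SD, n = 3; limma adjusted p = 0.249), or -0.75 without pair 3, and pair 13 overlapped the 4-month range. Psmb9, another immunoproteasome subunit, was at 0.27, -0.18 and 0.45 at 10 days and at -0.44, -1.61 and -0.57 at 4 months. The groups did not overlap, and the 4-month mean was -0.87 ± 0.64 (SD, n = 3; limma adjusted p = 0.265), or -0.50 without pair 3.

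Tap1 and Tap2 encode the transporter that carries peptides to MHC class I. Tap1 was at -0.98, -0.91 and -0.10 and Tap2 at -0.50, -0.52 and 0.09 in pairs 1, 3 and 5. Tapbp, which bridges the transporter to MHC class I, was at 0.35, 0.20 and -0.08 and so did not share the sign. B2m, the light chain of MHC class I, was negative in all 6 pairs, at -0.92, -0.56 and -0.38 at 10 days and at -0.01, -1.33 and -0.26 at 4 months. Its pair 1 value is the mean of opposed arrays, 0.97 with transgenic RNA in Cy3 and -0.98 in Cy5, so its sign there is not informative. Its means of -0.62 ± 0.28 and -0.53 ± 0.70 (SD, n = 3 each) had limma adjusted p of 0.536 and 0.418. B2m thus had the lowest 10-day mean of the 42 genes and its 4-month value was -0.14 without pair 3. Cxcl10, the only chemokine of the list, which attracts activated T cells, was at 0.20, 0.16 and -0.09 at 10 days and at 0.57, -0.73 and -0.06 at 4 months, with a 4-month mean of -0.07 ± 0.65 (SD, n = 3; limma adjusted p = 0.907) that turned to 0.25 without pair 3.

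The 2 dye-swapped arrays of a pair were compared gene by gene. In pair 3 the 2 arrays gave the same sign for 35 of 41 genes (85.4%, against 53.1% of all features), and in pair 5 for 31 of 42 (73.8%, against 49.4%). In pairs 11, 13, 15 and 1 they did so for 24, 17, 24 and 20 of 42 genes, close to the share over all features of 56.5%, 49.0%, 51.4% and 47.9%. The values of single genes in pair 1 therefore rest on arrays that often disagreed in sign. In pair 3 the arrays agreed in sign for most genes, with Igtp among the exceptions. The median over the genes had the same sign on both arrays of each 4-month pair, at -0.36 and -0.16 in pair 1, -0.64 and -0.82 in pair 3 and -0.05 and -0.06 in pair 5 (transgenic RNA in Cy3 and in Cy5). It did not in pairs 11 and 13, at -0.09 and 0.18 and at -0.18 and 0.02. Of 41 genes, 8 (19.5%, against 4.06% of features) were negative on all 6 arrays of the 4-month pairs: Irf7, Ifit2, Slfn8, Gbp2, Gbp3, Iigp1, Psmb8 and Psmb9.

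**Figure D3:**
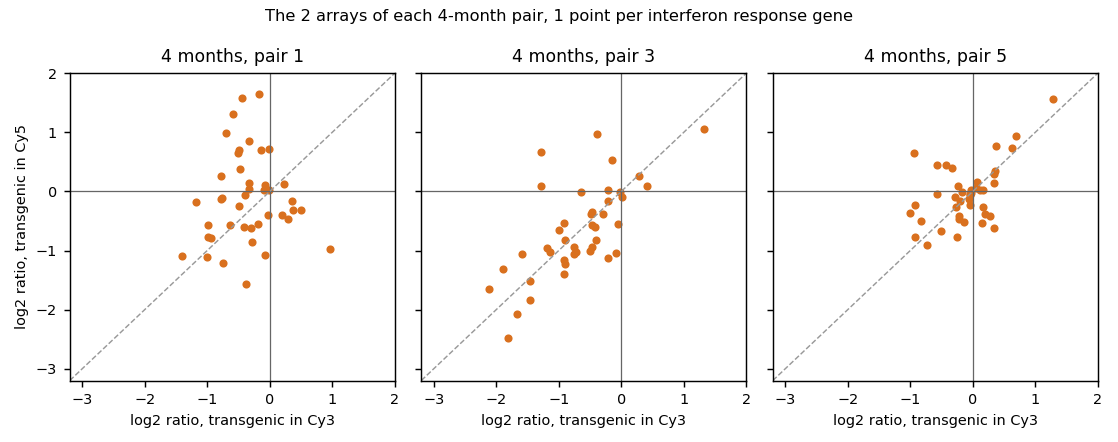
Log2 ratio on the array with transgenic RNA in Cy3 (x axis) and in Cy5 (y axis) for the 4-month pairs 1, 3 and 5, with 1 point per interferon response gene and a dashed line of equality. In pair 3, 35 of 41 genes have the same sign on both arrays, against 20 of 42 in pair 1 and 31 of 42 in pair 5.

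The rest of the interferon pathway was read from lists of genes outside the 42. Of 21 listed interferon ligands 14 were tested, with a 4-month median of 0.04; 6 were negative and none passed an unadjusted limma p of 0.05. Ifnb1, the first type I interferon made on infection, was at 0.23, -0.48 and 0.44 in pairs 1, 3 and 5, and Ifng, made by T and natural killer cells, at -0.08, -0.20 and 0.15. At 10 days their median was -0.05 with 10 of 14 negative. Without pair 3, 4 of 14 were negative at 4 months.

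Of 15 receptor, JAK-STAT and feedback genes 14 were tested, with a 4-month median of -0.21 and 11 negative. Ifngr1, Tyk2, Socs3 and Ptpn6 passed the unadjusted limma threshold with a negative ratio at 4 months (4 of 14, against 6.21% of features), and none was called after adjustment. Ptpn6, a phosphatase of blood cells, was at -0.67, -3.87 and -0.59. Ifnar1 and Ifnar2, the type I receptor chains, were at -0.04, -0.69 and 0.04 and at -0.12, 0.69 and -0.07, while Ifngr1 was at -0.18, -1.25 and -0.19. Of 8 sensing adaptors tested 6 were negative, with Irf3, Myd88 and Tlr7 past the unadjusted threshold. Of 5 other IRF family genes 4 were negative, with Irf3, Irf4 and Irf8 past it. Irf3 is in both lists and so is counted in each. Of all features, 52.0% had a negative 4-month mean and 6.21% passed the threshold with a negative ratio. Myd88 had similar means in both groups, -0.40 at 10 days and -0.37 at 4 months. Irf8, a factor of macrophages, dendritic cells and B cells, was at -0.60, -1.47 and -1.24.

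Markers of immune cells were read beside these values, since the glands were profiled whole and fewer cells of a type and less RNA per cell cannot be told apart. Of 8 listed B cell markers 7 were tested, and all 7 were negative in pair 3, from -5.18 (Cd79b) to -0.07 (Cr2), with a median of -3.86. In the other 5 pairs the B cell median lay between -0.07 and 0.22. The 7 tested of 9 T cell markers were also all negative in pair 3, with a median of -1.40, and had medians between -0.09 and 0.12 elsewhere.

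Macrophage markers had a negative median in every 4-month pair. Of 15 listed 13 were tested, and their median was -0.17, -1.20 and -0.47 in pairs 1, 3 and 5 and -0.11, -0.10 and 0.63 in pairs 11, 13 and 15. In pair 1 C1qb and Ptprc had no value and 6 markers were negative, close to an even split, while 11 were negative in pair 3 and 11 in pair 5. The 4-month median was -0.65 with 11 of 13 negative, and -0.38 with 10 negative without pair 3. Aif1 was at -0.77, -2.84 and -1.90 and C1qc at -1.16, -1.67 and -0.88, both macrophage genes. Cd14 and Cd163 were positive in every 4-month pair, at 0.74, 0.94 and 0.16 and at 0.04, 0.90 and 0.24. Mrc1 had a 4-month mean of -0.03, at 0.51, -0.48 and -0.11. Ratios give no level of a marker within a sample, so no marker could be read as absent. The immune markers moved with the interferon response genes in pair 3, and their part in the values of these genes was not tested. The dendritic cell and neutrophil lists had medians of -0.30 and -0.40 in pair 3.

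**Figure D4:**
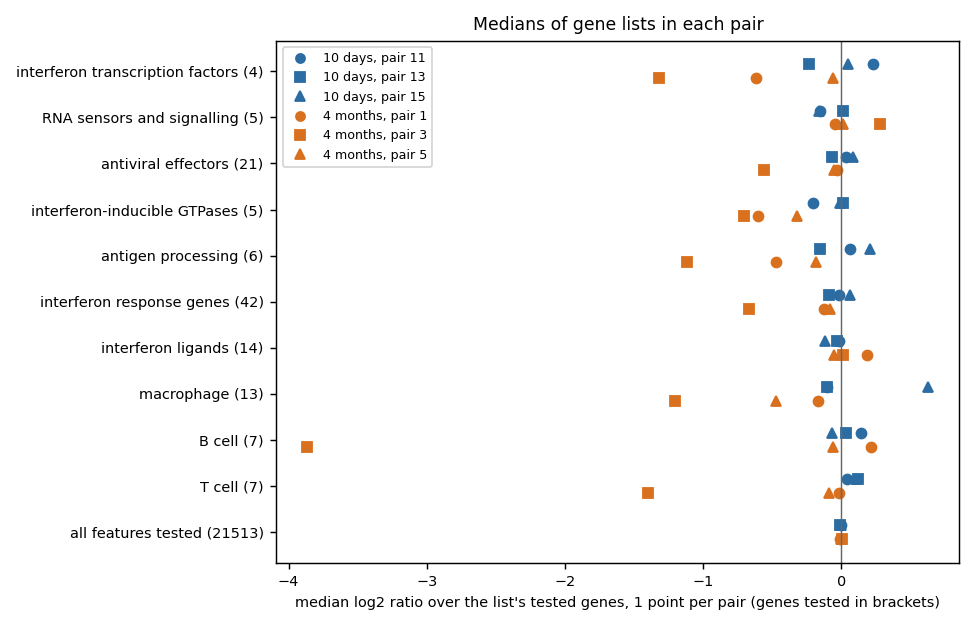
Median log2 ratio over each gene list in every pair (x axis, log2 units; tested genes in brackets), for the role classes, all interferon response genes, interferon ligands, 3 immune marker lists and all features. Pair 3 (orange squares) lies lowest for the B cell (-3.86), T cell (-1.40) and macrophage (-1.20) lists as well as for the interferon response genes (-0.67), while all features stay near 0.

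Markers of other tissues stood apart in single 10-day pairs. Hepatocyte markers had a median of 2.09 in pair 11 and adipocyte markers of 2.73 in pair 15, where the medians of the interferon response genes were -0.02 and 0.06. The 7 tested adrenal cortex markers and 6 chromaffin cell markers of the labelled tissue gave a value on all 12 arrays, and their 4-month medians were 0.10 and 0.25. In pair 3 these medians were 0.69 and 0.61, opposite in sign to the immune lists and to the 42 interferon response genes together. The RNA sensor class and the interferon ligands had positive medians in pair 3, 0.28 and 0.0082. Without pair 3 the 4-month medians of the cortex and chromaffin markers were -0.22 and 0.06. Across arrays, 4.31% to 6.59% of 25344 spots were empty, and 41 of the 42 interferon response genes had a value on all 12. By the signal of the arrays with transgenic RNA in Cy3, Trim21, Tap1 and Iigp1 lay in the dimmest 25% of probes, and none of the 42 was near the scanner's limit.

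On the values as deposited the median of all features was shifted to 0.20 at 10 days and 0.36 at 4 months. The medians of the 42 genes were then 0.18 and -0.01, below those of all features, and 22 of 42 were negative at 4 months, a count that includes this shared shift. Centring each array on its median gave 33 negative genes and a 4-month median of -0.38. All arrays with transgenic RNA in Cy3 carry 1 date in their descriptions and all those with it in Cy5 another, so dye orientation and that date cannot be told apart.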

How the data were processed

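Adrenal RNA of 6 transgenic and wild-type pairs was compared on 12 arrays. The authors deposited 1 log2 ratio per spot; no label or header used here names their scanner, normalization or numerator. Whole numbers up to 65535 whose ratio gives each value were recovered on the arrays with transgenic RNA in Cy3. There they fitted 100% of values in base 2 within 1e-13, and at most 0.417% and 0.664% with natural and base-10 logs. They gave the probe signal used for all arrays. The arrays with transgenic RNA in Cy5 were not examined in this way. Array medians were -0.68 to -0.22 with transgenic RNA in Cy3 and 0.74 to 1.50 in Cy5, so each array was corrected by loess on log2 signal (span 0.3), which removes a shift shared by most probes. With the mean of each orientation removed, arrays of the same pair correlated at 0.24 to 0.68 and of different pairs at -0.28 to 0.12, so both arrays of a pair were taken to run in 1 direction. As deposited, same-pair arrays correlated at -0.48 to -0.10 and different pairs of opposite orientation at -0.61 to -0.25. After loess the same-pair correlation over all features was 0.30, -0.0042, 0.20, -0.015, 0.41 and 0.12 in pairs 11, 13, 15, 1, 3 and 5.

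Probes were named from the platform annotation (21082 with 1 symbol, 30 with several and 4232 with none) and averaged per symbol. Features with at least 2 of 3 pairs in each group were fitted with limma 3.58.1 in R 4.3.3 (a mean per group, 4 residual and 3.852 prior degrees of freedom); the scripts were tested on simulated data. The number of pairs limits the precision. Genes given in all 6 pairs are, in each role class, the 2 with the smallest p at 4 months, the 1 with the smallest at 10 days and the 1 with the smallest for the difference, plus the most positive at 4 months. Genes and lists were chosen with earlier results of these data known, so lists are described without a test. Alternatives covered the dye correction, probes, filters, test, sex, single arrays and each pair left out.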

Additional observations from a re-analysis of the deposited data

Results flagged for a closer look

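In 3 genes the ratios were positive in every 10-day pair and negative in every 4-month pair. Oasl2, an oligoadenylate synthetase-like effector, was at 0.23, 0.13 and 0.37 in pairs 11, 13 and 15 and at -0.26, -0.59 and -0.13 in pairs 1, 3 and 5, a 4-month minus 10-day difference of -0.57 (limma unadjusted p = 0.00912). Ifngr1, the ligand-binding chain of the interferon gamma receptor, had means of 0.34 and -0.54, a difference of -0.88 (limma unadjusted p = 0.0163). Socs1, a feedback inhibitor of JAK kinases, had means of 0.39 and -0.22, a difference of -0.61 (limma unadjusted p = 0.00677). The limma adjusted p of each difference was 0.933. These 3 come from 82 interferon response and pathway genes, and 535 of 20356 features with 6 pair values (2.63%) showed opposite signs in this way, in either direction.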

How the results depend on the processing

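With values as deposited, 18 of 21513 features were called at 10 days, 2548 at 4 months, 5964 over all 6 pairs and 16 for the difference. Among them were 0, 4, 8 and 0 of the 42 interferon response genes. At 4 months and over all 6 pairs this was a smaller share than of all features. The 4 genes at 4 months were Irf7 and Psmb8, negative, and Ikbke and Trim25, positive. The median of the 42 genes was 0.18 at 10 days and -0.00895 at 4 months. The array-level fit called 69, 287 and 766 of 21714 features at 10 days, at 4 months and over all 6 pairs. Over all 6 pairs, where 12 features were called, median centring and the sex term gave 0, an ordinary linear model 1 and equalised array spread 23. Leaving out single pairs gave 0 to 1 features at 10 days, 0 to 5 at 4 months (5 without pair 5) and 0 to 15 over all 6 pairs (15 without pair 5, 4 without pair 11, 0 without pair 13, 15, 1 or 3). The 10-day median of the interferon response genes was -0.12 on Cy3 arrays and 0.11 on Cy5 arrays alone. The 4-month mean of Cxcl10 turned positive on values as deposited (0.32, where all features had a median of 0.36), on Cy5 arrays alone (0.50) and without pair 3 (0.25; -0.40 without pair 1), and that of Trim25 was -0.011 without pair 3 and 0.61 without pair 5. Irf7 passed at 4 months on Cy3 arrays alone (limma adjusted p = 0.0377) and on Cy5 arrays alone (0.0387). Of the other genes given pair by pair, Ifih1, Slfn8 and Psmb9 passed on Cy3 arrays only. Irf9, Rsad2, Gbp2, Gbp3 and Psmb8 passed on Cy5 arrays only. In a fit on a single orientation, a gene's dye effect and its ratio between the mice cannot be told apart. The share of all features passing in those fits was not counted. Unless a value or the setting itself shows it, the cause was not tested. The 4-month median of the interferon response genes stayed negative with each pair left out, from -0.48 to -0.14. With 3 pairs per group, values of single genes are imprecise.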

Other observations

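Adrenal medulla and cortex genes outside the interferon lists were also read by pair. Pnmt, the enzyme that makes adrenaline, had ratios of 0.75, 1.15 and 1.31 in the 10-day pairs and of 0.56, 1.35 and 1.77 in the 4-month pairs, positive in all 6. Th, the first enzyme of catecholamine synthesis, was at -0.01, 0.68 and 1.34 and at 0.66, 0.77 and 1.30. Cyp21a1, the steroid 21-hydroxylase of the cortex, was at -3.18, -3.96 and 0.25 at 10 days and at -1.41, 1.64 and 0.75 at 4 months, so its sign differed between pairs of both groups. These 3 genes were chosen after their values were seen, and no hypothesis was tested on them.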
